A study of Mus musculus with 12 samples.

Results

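Hyaluronan is made, cut and bound by a small group of genes, and 9 of them were followed in mouse mesenchymal stem/stromal cells (MSCs) given TGF-β with and without the kinase p38α: the precursor enzyme Ugdh, the synthases Has1, Has2 and Has3, the hyaluronidases Hyal1 and Hyal2, the receptor Cd44 and the binding proteins Tnfaip6 and Hapln1. They were chosen by name, with earlier results of these data known, so counts over them describe the set and do not test it. Each was read through every probeset annotated to that symbol alone. That gave 14 probesets of the 45037 tested on the array, 4 for Cd44, 2 each for Has2 and Hapln1 and 1 for each of the others. Where a gene has several, the probeset with the highest mean level stands for it and the others are named.

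The 12 Affymetrix MG-430 PM arrays held 4 groups of immortalized bone marrow MSCs, all derived from Mapk14 lox/lox mice carrying an inducible Cre (strain FVB/NJ in the labels, C57BL/6 J in the study's methods). There were 3 arrays of TGF-β-treated p38α∆ MSCs (numbered 1, 2 and 4), 2 of untreated p38α∆ MSCs (1 and 3), 3 of TGF-β-treated WT MSCs (1, 3 and 4) and 4 of untreated WT MSCs (1, 3, 4 and 4b). p38α∆ MSCs came from culture with 4-hydroxytamoxifen (4-OHT), which activates that Cre, and WT MSCs carry the same alleles and received vehicle, so the deletion and the exposure to 4-OHT cannot be told apart. All groups were in medium with 0.5% serum, and the treated ones received 5 ng/ml TGF-β for 20 h. The labels do not say that the arrays are separate cultures, so the p-values measure the spread between these arrays, which may be technical.

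Hyaluronan is a long unbranched sugar chain of the extracellular matrix. It is assembled at the plasma membrane by hyaluronan synthases from the sugar nucleotides UDP-glucuronic acid and UDP-N-acetylglucosamine, is cut by hyaluronidases, and is held on cells by receptors such as CD44 and in the matrix by link proteins and other binders. In connective tissue cells it forms pericellular coats and is known for its part in wound repair, inflammation and cartilage.

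TGF-β raised 5 of the 9 genes in p38α∆ MSCs, where 2.43% of all probesets rose and 2.78% fell, and 4 of the 9 in WT MSCs, where 2.94% rose and 3.06% fell. It lowered none of the 9. Tnfaip6, which encodes the secreted hyaluronan-binding protein TSG-6, rose 6.21-fold in p38α∆ MSCs and 5.31-fold in WT MSCs. Has2 rose 3.36-fold in p38α∆ MSCs and 3.67-fold in WT MSCs, Ugdh 1.75-fold in p38α∆ MSCs and 1.76-fold in WT MSCs, and Cd44 1.61-fold in p38α∆ MSCs and 1.62-fold in WT MSCs. Has1 rose 1.38-fold in p38α∆ MSCs, while Has3, Hyal1, Hyal2 and Hapln1 passed the test in neither genotype. No member differed between p38α∆ and WT MSCs at the threshold, with or without TGF-β.

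The values are log2 intensities normalized by the authors with RMA, so a difference of 1 is a doubling, and probesets differ in their response to RNA, so levels are compared only within a probeset. For orientation, the median of all probeset means was 4.25. Tests are from 1 limma fit of all 12 arrays and all probesets, with arrays of the same number as a random block, Benjamini-Hochberg adjustment over all 45037 probesets and a threshold of 0.05 on the adjusted p. In RNA of whole cultures, a change in the number of cells that express a gene and a change in RNA per cell cannot be told apart.

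Across all probesets, the first principal component, with 50.6% of the variance, separated array number 1 (4 arrays, −64.2 to −41.0) from the other numbers (8 arrays, 6.6 to 48.9). The treatment lay on the second component, with 23.9%, at −31.1 to −22.2 in treated arrays and 21.6 to 32.8 in untreated arrays. Of 7 MSC markers measured, 6 lay above the median probeset by their mean over all arrays. Means over the 4 groups were 9.03 to 9.43 for Pdgfrb and 11.09 to 11.24 for Itgb1 (CD29). They were 6.02 to 6.58 for Nt5e and 5.39 to 6.14 for Pdgfra. Lower were Eng (CD105), at 4.58 to 4.64, and Mcam, at 4.22 to 4.37 outside TGF-β-treated p38α∆ MSCs. Thy1 lay at 3.34 to 3.41. With TGF-β the MSC marker Mcam (CD146) rose by 1.04 and Pdgfra fell by 0.77 on the log2 scale in p38α∆ MSCs, and Nt5e (CD73) rose by 0.49 in WT MSCs. Mcam was also higher in TGF-β-treated p38α∆ MSCs (mean 5.45) than in TGF-β-treated WT MSCs (4.28), by 1.14 (adjusted p = 0.00435). None of 6 endothelial and none of 3 adipocyte markers lay above the median probeset, at 4.25. Of 7 leukocyte markers 3 did, Csf1r, Cd68 and Cd14, with group means of 4.32 to 4.81, while Ptprc (CD45), which defines leukocytes, was at 2.72 to 2.86. Of 4 epithelial markers 1 did, Krt8, with 4.16 to 4.40, and Cdh1 was at 2.96 to 3.03. No leukocyte or epithelial marker passed in any comparison. Of 6 chondrocyte markers, Sox9 alone passed with TGF-β, rising by 0.98 in p38α∆ MSCs and 0.59 in WT MSCs on the log2 scale. All 3 osteoblast markers measured lay above the median probeset. Their group means were 6.18 to 7.82 for Bglap (osteocalcin), 8.05 to 8.63 for Ibsp and 8.33 to 8.91 for Sp7. With TGF-β Bglap fell by 0.88 in p38α∆ MSCs and 0.73 in WT MSCs, and Sp7 rose by 0.50 in WT MSCs, while Ibsp did not pass. The mean log2 level of the chondrocyte markers by array was 4.90 to 5.04 in TGF-β-treated p38α∆ MSCs, 4.68 to 4.93 in untreated p38α∆ MSCs, 4.83 to 5.17 in TGF-β-treated WT MSCs and 4.64 to 4.89 in untreated WT MSCs, and Acan and Col2a1 did not pass. The part of these markers in the results below was not tested. None of the 6 Mapk14 probesets differed between p38α∆ and WT MSCs. Where they lie relative to the floxed exon was not given in the sources used here, so they do not check the labels. The study itself reports loss of the p38α protein by immunoblot after 4-OHT.

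Promoter sequences were found in the RefSeq table (build GRCm38.p6) for 7 of the 9 genes, all but Has2 and Has3. The 250 bases before the start site are printed for 4 of the genes that rose with TGF-β in p38α∆ MSCs, Tnfaip6 (chr2:52037863-52038112, plus strand), Has1 (chr17:17855189-17855438, minus strand), Cd44 (chr2:102901666-102901915, minus strand) and Ugdh (chr5:65435843-65436092, minus strand), so that the start regions of genes that moved together can be set side by side. Each is written 5′ to 3′ in the direction of the gene, with matches in capitals to the AP-1 motif TGANTCA and to CAGAC, the short sequence that Smad proteins can bind, each searched on both strands.
Tnfaip6: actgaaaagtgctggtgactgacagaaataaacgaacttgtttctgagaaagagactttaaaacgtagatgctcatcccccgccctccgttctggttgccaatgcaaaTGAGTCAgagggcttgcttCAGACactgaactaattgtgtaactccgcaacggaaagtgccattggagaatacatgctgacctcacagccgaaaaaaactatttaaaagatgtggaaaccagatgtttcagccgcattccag
Has1: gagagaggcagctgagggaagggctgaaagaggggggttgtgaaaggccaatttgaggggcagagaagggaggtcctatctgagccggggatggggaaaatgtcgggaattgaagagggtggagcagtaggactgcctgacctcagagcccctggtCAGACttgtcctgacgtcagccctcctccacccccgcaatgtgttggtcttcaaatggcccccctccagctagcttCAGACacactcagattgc
Cd44: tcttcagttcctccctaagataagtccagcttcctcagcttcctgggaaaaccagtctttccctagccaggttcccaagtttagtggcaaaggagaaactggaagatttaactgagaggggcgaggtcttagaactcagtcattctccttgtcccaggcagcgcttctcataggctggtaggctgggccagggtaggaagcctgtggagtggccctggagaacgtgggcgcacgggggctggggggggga
Ugdh: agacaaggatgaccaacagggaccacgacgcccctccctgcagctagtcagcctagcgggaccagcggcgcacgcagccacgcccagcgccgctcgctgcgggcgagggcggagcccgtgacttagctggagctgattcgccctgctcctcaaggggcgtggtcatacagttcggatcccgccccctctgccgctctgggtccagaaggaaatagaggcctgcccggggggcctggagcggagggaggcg
The Tnfaip6 window held TGAGTCA 142 bases and CAGAC 123 bases before the start, and the Has1 window held CAGAC at 94 and 18 bases. The Cd44, Ugdh and Hyal2 windows matched neither. Hyal1 and Hapln1, which did not pass with TGF-β, held 1 CAGAC each, on the other strand, 117 and 68 bases before the start. Of 32851 promoter windows of this length, 6.75% held the AP-1 motif and 42.2% held CAGAC. The Has1 and Hyal2 windows lie wholly inside the annotated spans of their genes, and the Hapln1 match lies inside its gene's span. The starts used for these genes are thus not the outermost annotated ones. A match describes the sequence and is not a measured site.

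**Figure D1:**
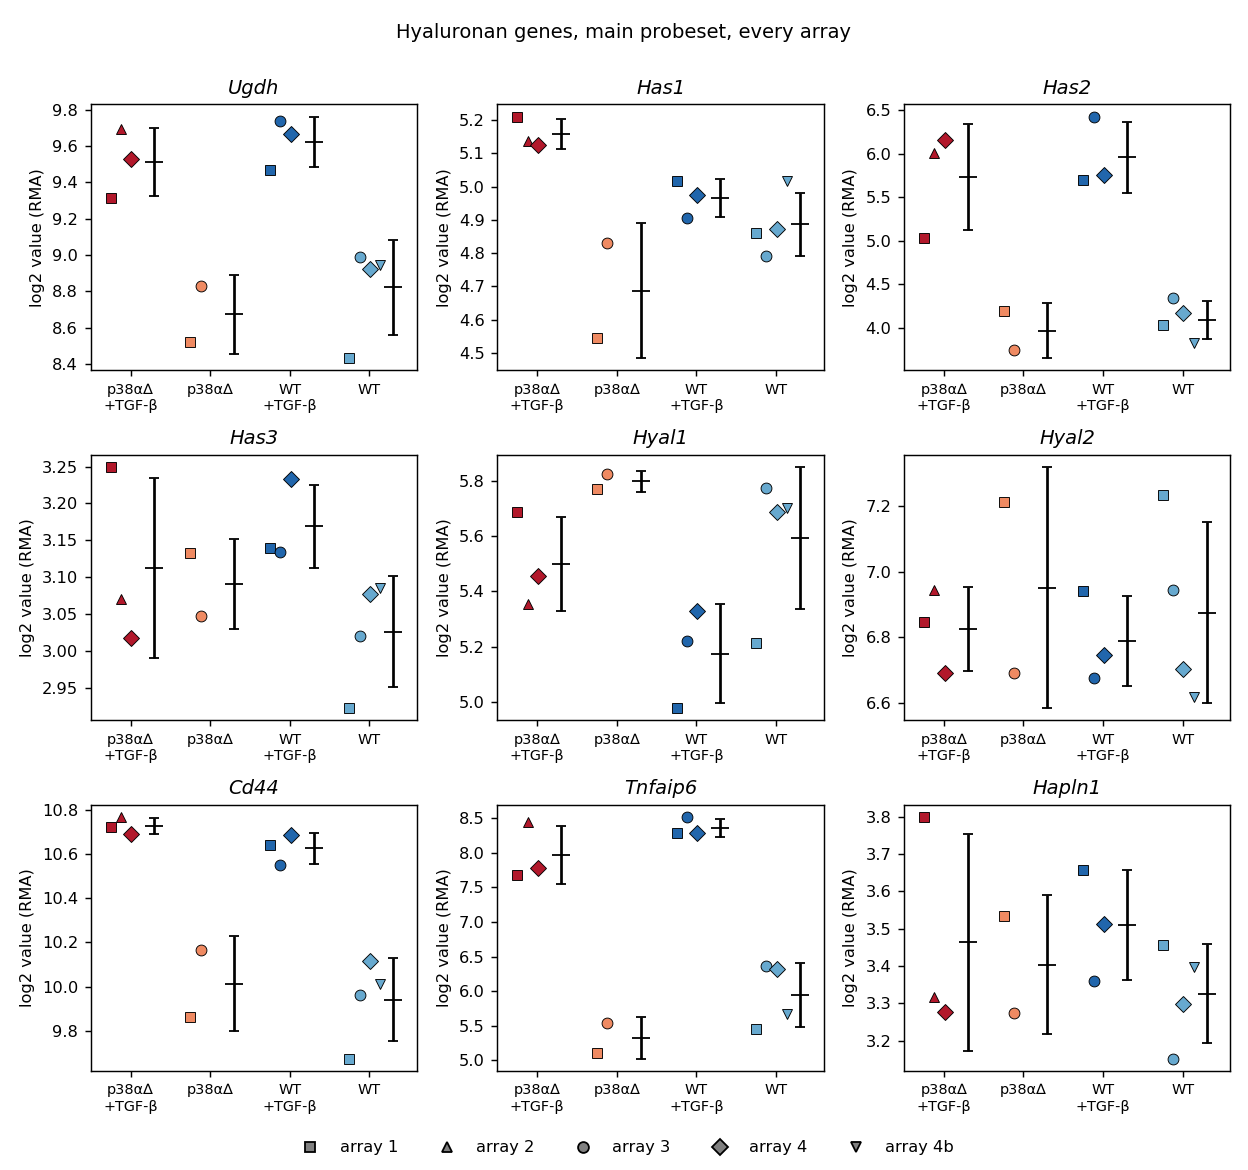
Log2 values (vertical axes, RMA) of the main probeset of each of the 9 genes in every array, by group, with 1 point per array, the marker's shape for the array's number, and the group mean ± SD in black beside the points. TGF-β-treated arrays of Tnfaip6, Has2, Cd44 and Ugdh lie above all untreated arrays in both genotypes, whereas those of Hyal2 and Hapln1 overlap them; each vertical axis has its own range and does not start at 0.

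Ugdh encodes UDP-glucose 6-dehydrogenase, which makes UDP-glucuronic acid. In p38α∆ MSCs its log2 values were 9.32, 9.69 and 9.53 with TGF-β, against 8.52 and 8.83 untreated. WT MSCs had 9.47, 9.74 and 9.66 with TGF-β, against 8.43, 8.99, 8.92 and 8.94 untreated. Every treated array lay above every untreated one, across the genotypes too, and the lowest value of each group was that of array 1. The log2 fold change was 0.81 (SE 0.12, adjusted p = 0.00259 in limma) in p38α∆ MSCs and 0.82 (SE 0.09, adjusted p = 3.54e-04) in WT MSCs. Within array numbers the rise was 0.80 for number 1 in p38α∆ MSCs, and 1.03, 0.74 and 0.73 for numbers 1, 3 and 4 in WT MSCs. The difference of the responses, p38α∆ minus WT, was −0.01, with a 95% interval of −0.35 to 0.34.

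The 3 synthases are related membrane enzymes that extend the same chain, and in mice Has2 is the one needed for heart development before birth. Has2 showed the second largest response of the 9 genes in both genotypes. Its main probeset (1449169_PM_at) read 5.03, 6.01 and 6.16 in TGF-β-treated p38α∆ MSCs, against 4.19 and 3.75 in untreated p38α∆ MSCs. TGF-β-treated WT MSCs read 5.70, 6.43 and 5.76, against 4.04, 4.34, 4.17 and 3.82 in untreated WT MSCs. All 6 treated arrays lay above all 6 untreated ones, and array 1 of TGF-β-treated p38α∆ MSCs was the lowest of the treated arrays by 0.67. The log2 fold change was 1.75 (SE 0.32, adjusted p = 0.00774) in p38α∆ MSCs and 1.87 (SE 0.24, adjusted p = 7.99e-04) in WT MSCs. Within numbers it was 0.84 for number 1 in p38α∆ MSCs, and 1.66, 2.09 and 1.76 for numbers 1, 3 and 4 in WT MSCs. Without array 3 of untreated p38α∆ MSCs the response of this probeset in p38α∆ MSCs was 1.34 and no longer passed (adjusted p = 0.0857).

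The second Has2 probeset (1418678_PM_at) moved the same way on a lower scale. It read 4.63, 5.04 and 5.28 in TGF-β-treated p38α∆ MSCs, against 3.48 and 3.76 in untreated p38α∆ MSCs. TGF-β-treated WT MSCs had 4.88, 5.14 and 4.73, against 3.39, 3.82, 3.90 and 3.61 in untreated WT MSCs. Again no treated array reached down to an untreated one. Its log2 fold change was 1.37 (SE 0.17, adjusted p = 7.30e-04) in p38α∆ MSCs and 1.25 (SE 0.13, adjusted p = 1.81e-04) in WT MSCs. The responses of the genotypes differed by −0.12 (95% interval −1.02 to 0.77) on the main probeset and 0.13 (−0.35 to 0.61) on the second.

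Has1 read 5.21, 5.14 and 5.13 in TGF-β-treated p38α∆ MSCs, against 4.54 and 4.83 in untreated p38α∆ MSCs. In WT MSCs it read 5.02, 4.91 and 4.98 with TGF-β, against 4.86, 4.79, 4.87 and 5.02 untreated. The p38α∆ groups did not overlap, and the WT groups did. The log2 fold change was 0.46 (SE 0.10, adjusted p = 0.0229) in p38α∆ MSCs and 0.08 (SE 0.08, adjusted p = 0.676) in WT MSCs. The difference of these responses was 0.38 (SE 0.13, 95% interval 0.09 to 0.67), with an unadjusted p of 0.0148 and an adjusted p of 0.945 over all probesets, so the genotypes were not shown to differ. The call in p38α∆ MSCs rested on array 1 of each group: the log2 fold change was 0.27 (adjusted p = 0.307) without array 1 of untreated p38α∆ MSCs, 0.40 (adjusted p = 0.121) without array 1 of TGF-β-treated p38α∆ MSCs and 0.28 (adjusted p = 0.223) without the 4 arrays numbered 1.

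Has3 read 3.25, 3.07 and 3.02 in TGF-β-treated p38α∆ MSCs, against 3.13 and 3.05 untreated, and 3.14, 3.13 and 3.23 in TGF-β-treated WT MSCs, against 2.92, 3.02, 3.08 and 3.09 untreated. The treated WT arrays lay above the untreated WT arrays, over a range of 0.31. Its log2 fold changes of 0.01 (adjusted p = 0.969) in p38α∆ MSCs and 0.15 (adjusted p = 0.330) in WT MSCs did not pass. All 12 Has3 values lay near the low end of the arrays' range, whose lowest value was 2.28 to 2.36.

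Hyal1 and Hyal2 encode hyaluronidases, a lysosomal enzyme and one anchored at the cell surface, and the genes neighbour each other on mouse chromosome 9. Hyal1 read 5.69, 5.36 and 5.46 in TGF-β-treated p38α∆ MSCs, against 5.77 and 5.82 in untreated p38α∆ MSCs. TGF-β-treated WT MSCs read 4.98, 5.22 and 5.33, against 5.21, 5.77, 5.69 and 5.70 in untreated WT MSCs. The p38α∆ groups did not overlap, and in WT MSCs array 1 of the untreated group lay among the treated values. The log2 fold change was −0.27 (SE 0.16, adjusted p = 0.449) in p38α∆ MSCs and −0.41 (SE 0.12, unadjusted p = 0.00623, adjusted p = 0.0818) in WT MSCs. Within numbers it was −0.24, −0.55 and −0.36 for numbers 1, 3 and 4 in WT MSCs. The WT value passed, at −0.54 (adjusted p = 0.0131), without array 1 of untreated WT MSCs, and at −0.44 (adjusted p = 0.0142) without the 4 arrays numbered 1.

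Hyal2 read 6.85, 6.94 and 6.69 in TGF-β-treated p38α∆ MSCs, against 7.21 and 6.69 in untreated p38α∆ MSCs. For TGF-β-treated WT MSCs the values were 6.94, 6.68 and 6.75, against 7.23, 6.94, 6.70 and 6.62 in untreated WT MSCs. All these groups overlapped. Its log2 fold changes of −0.12 (adjusted p = 0.778; 95% interval −0.44 to 0.20) in p38α∆ MSCs and −0.11 (adjusted p = 0.697; −0.36 to 0.13) in WT MSCs did not pass. Array 1 read above the mean of the rest of its group in all 4 groups, by 0.31 on average.

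CD44 is the main cell surface receptor for hyaluronan, and its tail is tied to the actin cytoskeleton through ezrin, radixin and moesin. Its main probeset (1434376_PM_at) read 10.72, 10.77 and 10.69 in TGF-β-treated p38α∆ MSCs, against 9.86 and 10.17 in untreated p38α∆ MSCs. TGF-β-treated WT MSCs read 10.64, 10.55 and 10.69, against 9.67, 9.96, 10.12 and 10.01 in untreated WT MSCs. The treated arrays lay within 0.22 of each other across both genotypes and above every untreated array. The log2 fold change was 0.68 (SE 0.12, adjusted p = 0.00574) in p38α∆ MSCs and 0.70 (SE 0.09, adjusted p = 7.79e-04) in WT MSCs. Without array 1 of untreated p38α∆ MSCs the p38α∆ value was 0.54 and did not pass (adjusted p = 0.108).

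Of the other Cd44 probesets, 1423760_PM_at read 9.87, 10.03 and 9.95 in TGF-β-treated p38α∆ MSCs, against 9.26 and 9.23 untreated, and 9.89, 9.73 and 9.83 in TGF-β-treated WT MSCs, against 9.12, 9.14, 9.14 and 9.17 untreated. Probeset 1452483_PM_a_at read 8.70, 8.71 and 8.66 in p38α∆ MSCs with TGF-β, against 7.98 and 7.61 without it. In WT MSCs it read 8.59, 8.45 and 8.56 with TGF-β, against 8.05, 7.79, 7.76 and 7.63 without it. Neither had a treated array below an untreated one. Probeset 1423760_PM_at rose by 0.67 (adjusted p = 3.92e-04) in p38α∆ MSCs and 0.68 (adjusted p = 4.54e-05) in WT MSCs on the log2 scale, and 1452483_PM_a_at rose by 0.88 (adjusted p = 7.39e-04) in p38α∆ MSCs and 0.71 (adjusted p = 4.20e-04) in WT MSCs. The 4th, 1443265_PM_at, ranged from 4.38 to 5.10 over the 12 arrays and did not pass, with 0.36 (adjusted p = 0.0648) in p38α∆ MSCs and 0.22 (adjusted p = 0.140) in WT MSCs. Thus 3 of 4 probesets passed in each genotype, with rises of 0.67 to 0.88.

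Tnfaip6 had the largest response of the 9 genes in both genotypes. TSG-6 binds hyaluronan through a link module and passes heavy chains of inter-alpha-inhibitor onto it, which crosslinks the chains, and it is known as an anti-inflammatory product of MSCs. The gene read 7.68, 8.45 and 7.78 in TGF-β-treated p38α∆ MSCs, against 5.11 and 5.54 in untreated p38α∆ MSCs. TGF-β-treated WT MSCs read 8.28, 8.51 and 8.29, against 5.44, 6.36, 6.32 and 5.67 in untreated WT MSCs. The lowest treated array lay 1.32 above the highest untreated one. The log2 fold change was 2.63 (SE 0.24, adjusted p = 9.23e-05) in p38α∆ MSCs and 2.41 (SE 0.19, adjusted p = 2.02e-05) in WT MSCs. Within numbers it was 2.57 for number 1 in p38α∆ MSCs, and 2.84, 2.15 and 2.29 for numbers 1, 3 and 4 in WT MSCs. The responses differed by 0.23 (95% interval −0.46 to 0.91).

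HAPLN1 is the link protein that fixes proteoglycans to hyaluronan in cartilage. Its main probeset (1421633_PM_a_at) read 3.80, 3.32 and 3.28 in TGF-β-treated p38α∆ MSCs, against 3.54 and 3.27 in untreated p38α∆ MSCs. With TGF-β, WT MSCs had 3.66, 3.36 and 3.51, against 3.46, 3.15, 3.30 and 3.40 in untreated WT MSCs. The highest value of each group was that of array 1, and the groups overlapped. The log2 fold changes of 0.06 (adjusted p = 0.874) in p38α∆ MSCs and 0.18 (adjusted p = 0.397) in WT MSCs did not pass, nor did those of the second probeset (1438020_PM_at), −0.12 in p38α∆ MSCs and −0.09 in WT MSCs. Both probesets lay below the median probeset, with means over all arrays of 3.42 for the main and 3.12 for the second.

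**Figure D2:**
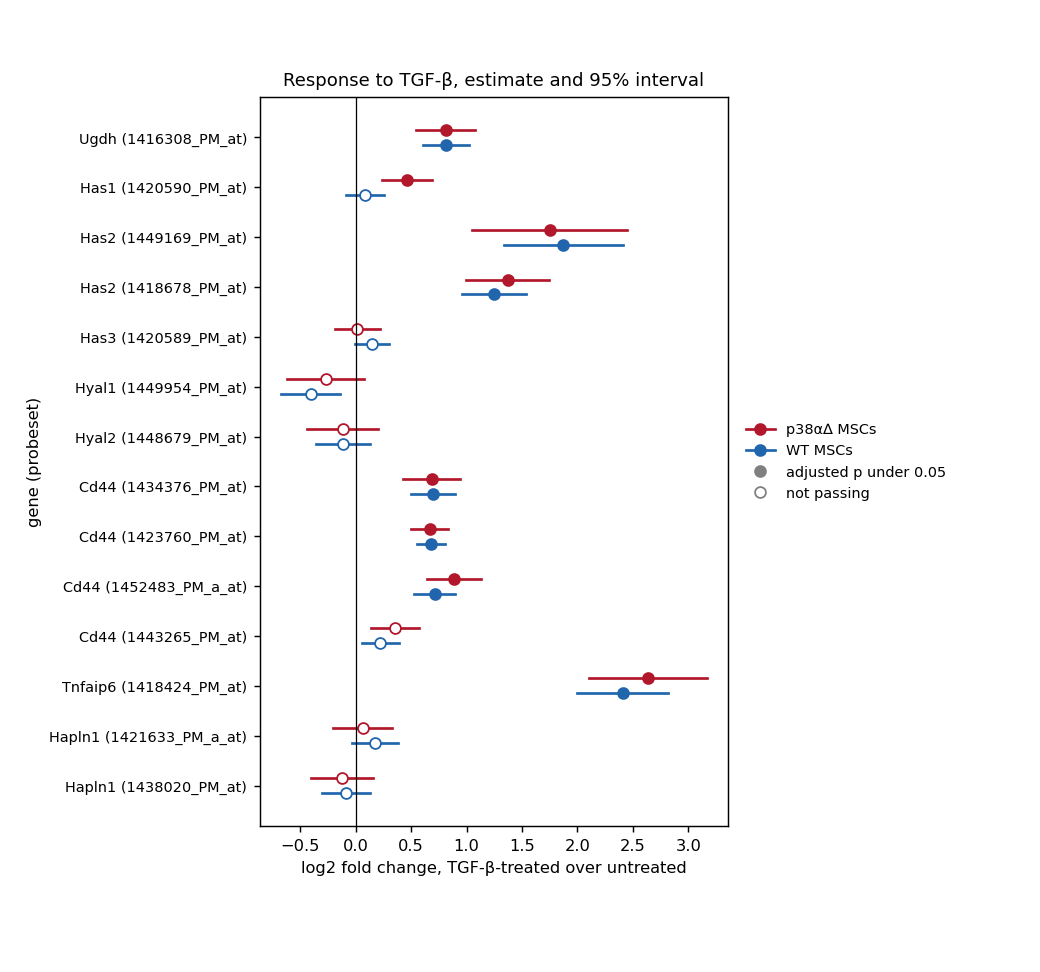
Log2 fold change of TGF-β-treated over untreated MSCs (horizontal axis) for each of the 14 probesets, with 95% intervals from limma, in p38α∆ MSCs (upper, red) and WT MSCs (lower, blue); filled points passed at an adjusted p of 0.05. Both Has2 probesets, 3 of 4 Cd44 probesets, Tnfaip6 and Ugdh lie to the right of 0 in both genotypes with overlapping intervals, and Has1 is filled in p38α∆ MSCs alone, a difference that did not itself pass.

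By probeset, 8 of 14 rose in p38α∆ MSCs, where 1095 of all probesets rose and 1252 fell, and 7 of 14 in WT MSCs, where 1326 rose and 1378 fell. The median log2 fold change over the 9 main probesets was 0.46 in p38α∆ MSCs and 0.18 in WT MSCs, against −0.01 over all probesets in p38α∆ MSCs and 0.00 in WT MSCs. These medians are the values of Has1 in p38α∆ MSCs and of Hapln1 in WT MSCs. The difference of the responses passed for none of the 9 genes. Treated and untreated arrays did not overlap for 6 of the 9 genes in p38α∆ MSCs, as for 20.0% of all probesets, and for 5 in WT MSCs, as for 11.0%. The 2 TGF-β comparisons share no arrays, but array 1 is the only number that untreated and treated p38α∆ MSCs have in common. Over all 4 groups, array 1 lay below the rest of its group for Ugdh (by 0.34 on average), Tnfaip6 (0.41), the second Has2 probeset (0.31) and Cd44 probeset 1443265_PM_at (0.26). It lay above for the main Hapln1 probeset (0.29), Hyal2 (0.31) and Cd44 probeset 1452483_PM_a_at (0.20). From 52.4% to 81.0% of all probesets had a smaller average shift than these.

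**Figure D3:**
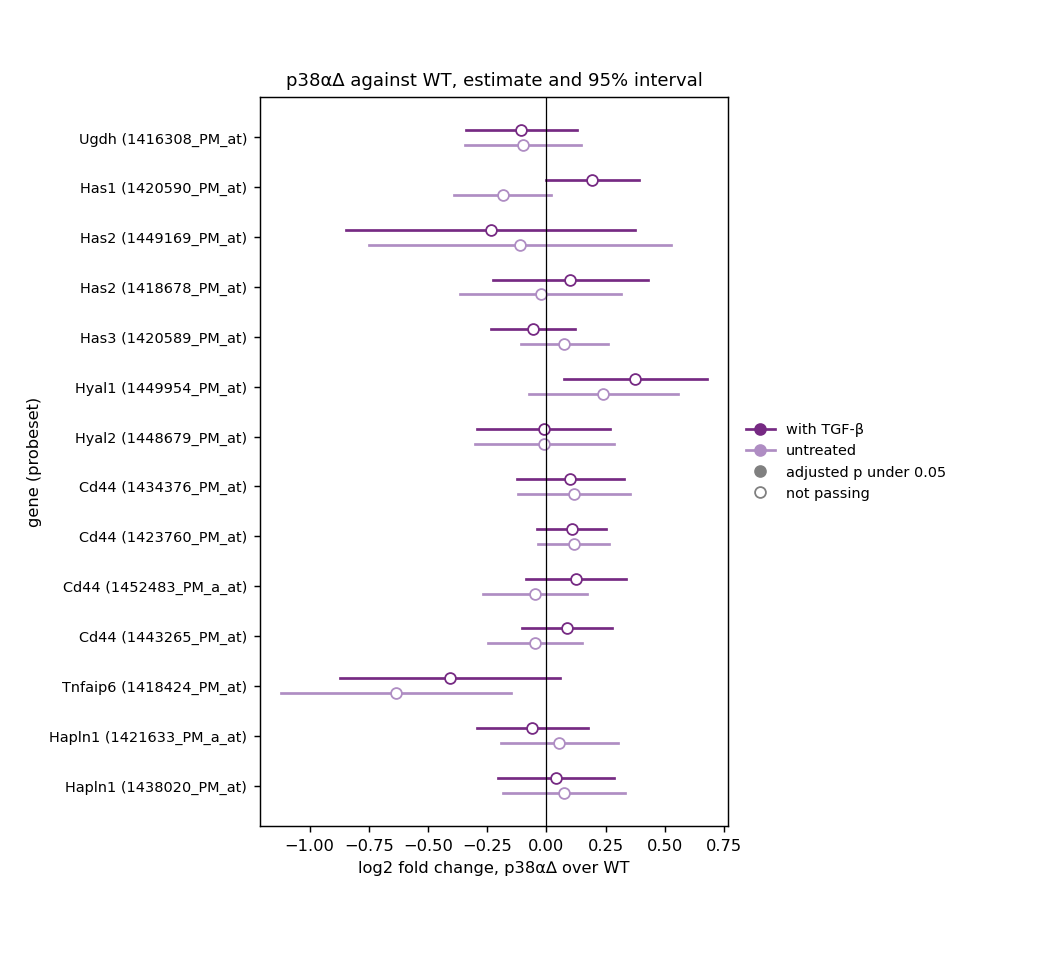
Log2 fold change of p38α∆ over WT MSCs (horizontal axis) for each of the 14 probesets, with 95% intervals from limma, with TGF-β (upper, dark) and untreated (lower, pale); open points did not pass. All 28 points are open, and those of Tnfaip6, and of Hyal1 with TGF-β, lie farthest from 0.

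p38α∆ MSCs were next set against WT MSCs. With TGF-β none of the 9 genes passed, where 0.187% of all probesets did (74 higher and 10 lower, Ccn2 among the higher at 1.74). The smallest p was that of Hyal1, with a log2 fold change of 0.38 (SE 0.14, unadjusted p = 0.0192, adjusted p = 0.540), with its 3 arrays above the 3 of TGF-β-treated WT MSCs. Within numbers this was 0.71 for number 1 and 0.13 for number 4. Has1, at 0.19 (adjusted p = 0.720), and Cd44, at 0.10 (adjusted p = 0.960), also had all 3 arrays above those of WT MSCs. For Cd44 the lowest p38α∆ array read 10.690 and the highest WT array 10.687. The arrays overlapped for Cd44 probesets 1423760_PM_at and 1443265_PM_at but not for 1452483_PM_a_at. On the main probesets a lack of overlap was seen in these 3 genes, Hyal1, Has1 and Cd44, and in 7.77% of all probesets. Tnfaip6 gave −0.41 (95% interval −0.87 to 0.06, adjusted p = 0.782), and −0.60 and −0.50 within numbers 1 and 4. The main Has2 probeset went opposite ways within numbers, −0.67 for number 1 and 0.41 for number 4, for a fitted −0.24 (95% interval −0.85 to 0.37). The second Has2 probeset gave −0.25 and 0.54 within these numbers, for a fitted 0.10 (95% interval −0.23 to 0.43), so the 2 fitted values differ in sign.

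Untreated p38α∆ and WT MSCs differed at no probeset in limma (0% called, 2049 with an unadjusted p under 0.05). Of the 9 genes, 1 had an unadjusted p under 0.05, Tnfaip6, with 5.11 and 5.54 in p38α∆ MSCs against 5.44, 6.36, 6.32 and 5.67 in WT MSCs. Its log2 fold change was −0.63 (SE 0.22, unadjusted p = 0.0149, adjusted p = 0.987), and −0.33 and −0.82 within numbers 1 and 3, with overlapping arrays. The order of its 4 groups by mean was TGF-β-treated WT (8.36), TGF-β-treated p38α∆ (7.97), untreated WT (5.95) and untreated p38α∆ MSCs (5.33). Neither step between the genotypes passed, and the TGF-β response passed in each. None of the 9 genes had arrays without overlap in the untreated comparison, as 7.01% of all probesets did. The difference of the TGF-β responses passed for 0.00666% of all probesets and for none of the 9 genes.

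The enzymes that supply the other sugar nucleotide and the remaining hyaluronan genes were read from 5 lists, of which 41 genes were measured. With TGF-β 2 of them rose and none fell in p38α∆ MSCs, and 5 rose and 1 fell in WT MSCs. Both that rose in p38α∆ MSCs, and 3 of the 5 in WT MSCs, were among the 7 other precursor enzymes. Gfpt2, an isoform of the enzyme that commits fructose 6-phosphate to the hexosamine pathway, averaged 4.49 ± 0.18 (SD, n = 3) in p38α∆ MSCs with TGF-β and 3.66 ± 0.20 (SD, n = 2) without it. In WT MSCs it averaged 4.56 ± 0.19 (SD, n = 3) with TGF-β and 3.65 ± 0.05 (SD, n = 4) without it. It rose by 0.79 (adjusted p = 0.00207) in p38α∆ MSCs and 0.90 (adjusted p = 1.27e-04) in WT MSCs.

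Uap1, which makes UDP-N-acetylglucosamine in the last step of that pathway, rose by 0.97 (adjusted p = 1.97e-04) in p38α∆ MSCs and 0.77 (adjusted p = 1.23e-04) in WT MSCs on its main probeset, whereas its other 2 probesets did not pass, with 0.09 and 0.30 in p38α∆ MSCs and 0.21 and 0.24 in WT MSCs. Gfpt1, the other isoform of the committing enzyme, gave 0.43 (adjusted p = 0.309) in p38α∆ MSCs and rose by 0.58 (adjusted p = 0.0485) in WT MSCs, a call that 15 of the 22 alternative settings removed. Its other 3 probesets did not pass, with 0.01 to 0.32 in p38α∆ MSCs and 0.08 to 0.35 in WT MSCs. Pgm3, Gnpnat1, Ugp2 and Uxs1 passed in neither genotype. Thus Ugdh and Uap1, the enzymes of the final steps to the 2 precursors, rose with TGF-β in both genotypes, as did Has2.

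**Figure D4:**
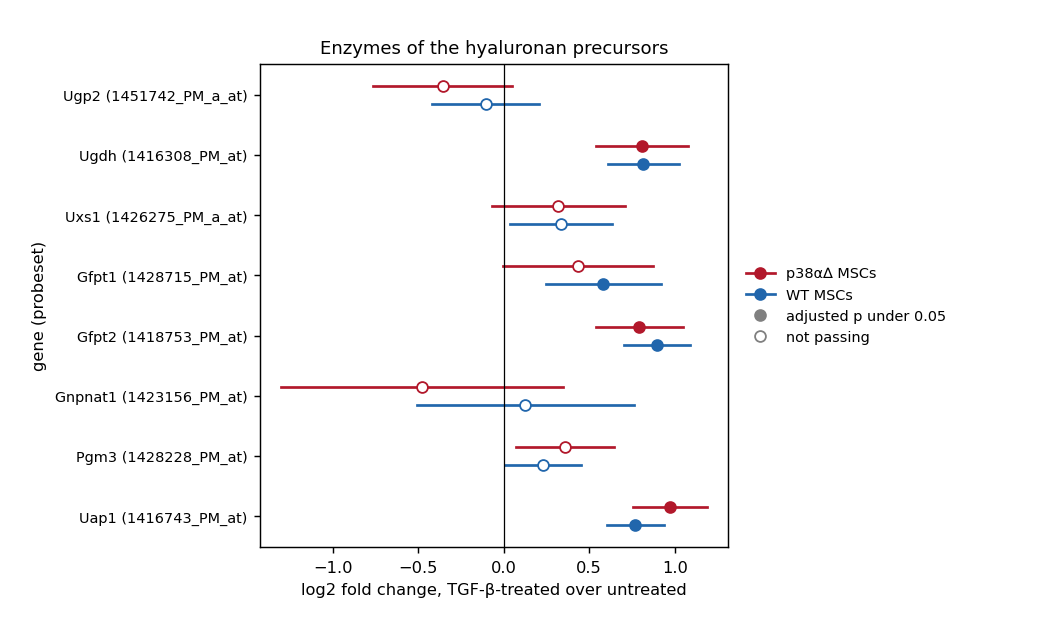
Log2 fold change of TGF-β-treated over untreated MSCs (horizontal axis) for Ugdh and the 7 other precursor enzymes, main probeset of each, with 95% intervals from limma, in p38α∆ MSCs (upper, red) and WT MSCs (lower, blue); filled points passed. Ugdh, Gfpt2 and Uap1 are filled in both genotypes, between 0.77 and 0.97, and Gfpt1 in WT MSCs alone.

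Among 8 other degrading enzymes, only Cemip2 (TMEM2), which cuts hyaluronan at the cell surface in mouse cells, passed. It averaged 8.69 ± 0.20 (SD, n = 3) with TGF-β and 8.29 ± 0.31 (SD, n = 2) without it in p38α∆ MSCs, and 9.07 ± 0.19 (SD, n = 3) with it and 8.45 ± 0.13 (SD, n = 4) without it in WT MSCs. It gave 0.42 (adjusted p = 0.0677) in p38α∆ MSCs and rose by 0.62 (adjusted p = 0.00145) in WT MSCs, where the adjusted p was 0.0507 without the replicate block. Its second probeset gave 0.68 (adjusted p = 0.0775) in p38α∆ MSCs and rose by 0.90 (adjusted p = 0.00426) in WT MSCs, and the remaining one gave 0.0016 (adjusted p = 0.997) in p38α∆ MSCs and 0.02 (adjusted p = 0.920) in WT MSCs. The difference of the responses on the first was −0.21 (adjusted p = 0.945). Of 7 other receptors, Layn (layilin) gave 0.16 (adjusted p = 0.382) in p38α∆ MSCs and fell by 0.27 (adjusted p = 0.0239) in WT MSCs, a call lost in 10 of the 22 settings (adjusted p = 0.0987 without the replicate block). The difference of its responses was 0.43 (unadjusted p = 0.00159, adjusted p = 0.857). Of 5 partners of the CD44 tail, Msn (moesin) gave 0.28 (adjusted p = 0.0769) in p38α∆ MSCs and rose by 0.36 (adjusted p = 0.00491) in WT MSCs, where it had an adjusted p of 0.0829 without the 4 arrays numbered 1. Its second probeset rose by 0.42 (adjusted p = 0.0149) in p38α∆ MSCs and 0.33 (adjusted p = 0.0128) in WT MSCs.

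None of the 14 hyaluronan-binding proteoglycans, link proteins and crosslinkers passed in either genotype. Vcan (versican), a large matrix proteoglycan, gave −0.56 (adjusted p = 0.0987) in p38α∆ MSCs and −0.19 (adjusted p = 0.546) in WT MSCs, and Acan (aggrecan) of cartilage 0.30 in p38α∆ MSCs and 0.29 in WT MSCs. Ptx3, which works with TSG-6 in crosslinking hyaluronan in the mouse, gave 0.34 (adjusted p = 0.492) in p38α∆ MSCs and 0.29 (adjusted p = 0.413) in WT MSCs. In the comparisons of p38α∆ with WT MSCs none of the 41 genes passed, and the smallest p with TGF-β was that of Vcan, at −0.65 (unadjusted p = 0.00118, adjusted p = 0.166).

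Finally, the genes whose pattern over the 12 arrays was nearest to each member that rose were read as a description, by the root mean square difference between centred log2 values. Nearest to Has2 were Rflnb (0.27), Nudt6 (0.28) and Gadd45b (0.30), where Has2 itself varied by 0.96. Nearest to Tnfaip6 (1.27) were Nudt6, Lgr6 and Prss46, at 0.42 to 0.44. For Cd44 (0.38) they were Spred2, Acvr1 and Iqgap1, at 0.07 to 0.10, and for Ugdh (0.44) Lhfpl2, Chsy1, which extends chondroitin sulfate chains from the same UDP-glucuronic acid, and Tti2, at 0.09 each. Nudt6 thus appeared near both Has2 and Tnfaip6, and it rose by 1.96 in p38α∆ MSCs and 2.03 in WT MSCs. Nearest to Has1 (0.17) were Rasl10b, Defb4 and Ap1g1, at 0.09 to 0.10.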

How the data were processed

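Labelled cDNA from MSC cultures in 4 groups was hybridised to 12 Affymetrix arrays. The deposited log2 values had been normalized by the authors with RMA and were taken as they are, 1 per probeset. Precision is limited by how many arrays each group has. Of 45101 probesets, 64 controls were left out. GEO's platform annotation gave 1 gene symbol to 28898 of the 45037 tested, several to 551 and none to 15588; no symbol changed through the 28689 Entrez IDs that matched.

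All 12 arrays entered 1 limma fit (version 3.58.1, R 4.3.3), with the array number as a random block (duplicateCorrelation, estimated correlation 0.46; 4b counted with 4) and Benjamini-Hochberg adjustment over all probesets. The study's methods adjust for scanning batch, which is not given in the sources used here. Same-numbered arrays of different groups deviated together from their group means in all 14 pairs (correlation 0.11 to 0.84). For number 4 this was 0.11 to 0.39, and pairs of different numbers ranged from −0.82 to 0.74. The 2 untreated p38α∆ arrays, 1 and 3, deviate from their mean by equal and opposite amounts. Pairs with its array 3 thus mirror pairs with its array 1 and are not separate from them. Without the 4 arrays numbered 1 the estimated correlation was 0.115, so how far the numbers pair the other arrays is unclear. WT arrays 4 and 4b differed by a median of 0.0895, close to the 0.0937 between WT arrays 3 and 4, and were kept as separate arrays. The fit was tested on simulated data.

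All 9 members are named, with every probeset; of the pathway lists, genes that passed in at least 1 comparison are named, and the 3 most alike genes of each member that passed. Vcan, Acan, Ptx3 and the precursor enzymes that did not pass were named after their values were seen. Members and lists were chosen with earlier results of these data known. Hyal4, Hapln3 and Habp2 were not analysed here. Alternatives were the block (none, fixed), the arrays fitted, filters, scaling, the variance model, the choice of probeset and leaving arrays out. Figures were drawn with matplotlib.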

Additional observations from a re-analysis of the deposited data

Results flagged for a closer look

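In a group of 4 arrays, a lowest or highest value was singled out where its gap to the next, divided by the whole range of the group, was above Dixon's 95% critical value for 4 arrays. Only untreated WT MSCs had 4 arrays, so 14 probesets were looked at, and chance marks about 1 group in 20. Array 1 of untreated WT MSCs was singled out for Ugdh, at 8.43 against 8.92, 8.94 and 8.99 in the other arrays (gap over range 0.875), and for Hyal1, at 5.21 against 5.69, 5.70 and 5.77 (gap over range 0.846). The part of the array number in these values was not tested beyond the fits without array 1.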

How the results depend on the processing

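The settings were applied to 100 results over the comparisons, from the 14 member probesets and only those pathway genes that had passed in the main fit. Of these results 23 passed, which through that choice is not a rate of passing. Under 22 alternative settings none of the 23 reversed. The call was lost in at least 1 setting for 7 of them: Has1, Has2 (main probeset) and Cd44 (main probeset) in p38α∆ MSCs, and Gfpt1, Layn, Cemip2 and Msn in WT MSCs. Has1 in p38α∆ MSCs also missed with the block as a fixed term (adjusted p = 0.0787) and with a variance trend (0.0665). A call was gained for Hyal1 in WT MSCs in 4 settings, for the Cd44 probeset 1443265_PM_at in p38α∆ MSCs with quantile normalization (0.0360) and for Cemip2 in p38α∆ MSCs with quantile normalization (0.0225) and above the median level (0.0439). Of the 77 results that did not pass, 35 changed sign in at least 1 setting without a call. Counts of probesets moved more. With TGF-β in p38α∆ MSCs 1058 passed without the replicate block, 1423 with 1 probeset per gene by variability (fewer probesets were tested), and 1161 to 2712 with 1 array left out. With TGF-β in WT MSCs these counts were 994, 1681 and 1541 to 3133. Members passing with 1 array left out were 3 to 5 in p38α∆ MSCs, with 3 without array 1 of untreated p38α∆ MSCs, and 4 to 5 in WT MSCs. For TGF-β-treated p38α∆ against TGF-β-treated WT MSCs 19 probesets passed without the replicate block, 13 with it as a fixed term, 32 without the 4 arrays numbered 1, and 8 to 115 with 1 array left out; for the untreated comparison it was 0 to 5 (5 without WT array 4b). For the difference of responses 0 passed without the replicate block, with it fixed, with 1 probeset per gene, with quantile normalization, with WT arrays 4 and 4b averaged and without the arrays numbered 1, 1 with median centring, and 0 to 1 with 1 array left out. The cause of these moves was not tested. Where 1 untreated p38α∆ array remained, it was assumed to vary like the other groups. Fitting only the arrays compared could not be done for TGF-β in p38α∆ MSCs, where the correlation could not be estimated, and was not run for the difference of responses. With 2 to 4 arrays a group, a difference that missed the threshold may still be as large as its 95% interval allows.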
